A study of Mus musculus with 6 samples.

Results

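The caspases, the BCL2 family, the death receptor and necroptosis genes, the gasdermins and the inflammasome genes make up the cell's own killing machinery and its brakes. They were described here in bone marrow stromal cells of mice, in 3 libraries that carried the Pth1rΔNLS allele and 3 wild-type (WT) libraries. The genes were chosen by symbol: every gene named Casp with a number, every Bcl2-named gene, Mcl1, Bax, Bak1, Bok and the BH3-only genes, the apoptosome and inhibitor of apoptosis genes Apaf1, Cycs, Diablo, Xiap, Birc2, Birc3 and Birc6, the death receptor genes Fas, Fadd, Cflar, Ripk1, Ripk3 and Mlkl, every Gsdm, Nlrp and Naip gene, Nlrc4, Aim2 and Pycard. The GENCODE annotation holds 89 such symbols, of which 53 were among the 11896 genes measured, and the other 36 (mostly Nlrp, Gsdm and Naip symbols and pseudogenes) were not analysed here. The rule is a list of symbols and uses no measured value, but it was chosen with earlier results of these data known. Entry also depended on expression, since no transcript with a mean below 0.251 was listed.

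The RNA-seq study set cells with an altered parathyroid hormone receptor beside wild-type cells, in work on the nuclear receptor, thyroid hormone and bone mass. Both groups were primary cells with the label bone marrow stromal cells, a marrow population that includes the precursors of osteoblasts. The Pth1rΔNLS animals, named for a receptor allele without its nuclear localisation signal, were heterozygous per the series' design text, and the WT animals carried no such allele. Age, sex, strain, the way the cells were isolated or cultured, and whether each library came from its own mouse are not stated by the labels. All p-values below thus reflect the spread among these libraries alone, which may be technical.

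As background, apoptosis runs on proteases called caspases: initiator caspases are switched on by death receptors at the cell surface or by the apoptosome, which forms when cytochrome c leaves mitochondria, and they cut and activate executioner caspases. The BCL2 family decides whether mitochondria leak, since pore-forming members open the outer membrane, survival members hold them back and BH3-only members release that hold. Inflammasomes are assemblies of a sensor, the adaptor encoded by Pycard and the protease encoded by Casp1; they release interleukins and open gasdermin pores, and they are best known in macrophages.

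Levels are FPKM, which divide the fragments of a transcript by its length and by the size of the library, summed over the transcripts of a gene. Deposited FPKM sums were 316157 to 343328 per Pth1rΔNLS library and 315872 to 333509 per WT library, and the sequencing depth is unknown. Mitochondrially encoded transcripts took 18.2, 12.8 and 10.6% of FPKM in Pth1rΔNLS libraries 1, 2 and 3 and 6.47, 12.8 and 9.33% in WT libraries 1, 2 and 3, so the groups overlapped. The labelled cell type was checked against its markers. Of 20 osteoblast and stromal symbols 18 were listed, and Lepr and Thy1 were not analysed here. Their levels ranged widely. Spp1, which macrophages also express, averaged 5440 FPKM in Pth1rΔNLS and 4909 FPKM in WT cells, and Sparc 867 FPKM in Pth1rΔNLS and 1608 FPKM in WT cells. The osteoblast genes Alpl (6.33 FPKM in Pth1rΔNLS, 18.8 in WT cells), Sp7 (1.20 FPKM in Pth1rΔNLS, 4.28 in WT cells) and Bglap (0.0819 FPKM in Pth1rΔNLS, 1.24 in WT cells) were low. Other genes of that list were more abundant, such as Col1a1 (196 FPKM in Pth1rΔNLS, 668 in WT cells). Col1a2 averaged 362 FPKM in Pth1rΔNLS and 847 FPKM in WT cells, and Cxcl12 82.6 FPKM in Pth1rΔNLS and 282.5 FPKM in WT cells. All 25 macrophage markers were listed too, none of them at 0 in any library, with Lyz2 at 2811 FPKM in Pth1rΔNLS and 2231 FPKM in WT cells. They summed to 7352 FPKM or more in every library, so the libraries held substantial macrophage RNA. The 17 listed stromal genes other than Spp1, in a sum chosen after seeing the data, reached at most 3821 FPKM in any library. Pth1r itself, the targeted gene, had 1.91, 1.72 and 2.99 FPKM in the Pth1rΔNLS libraries and 7.98, 4.72 and 6.24 FPKM in the WT libraries (log2 fold change -1.19, SE 0.22, limma adjusted p = 0.0140; exact two-sided permutation p = 0.1, the smallest that 3 against 3 allows). That limma call was lost without Pth1rΔNLS 1 (adjusted p = 0.0524), Pth1rΔNLS 2 (0.0528) or WT 3 (0.0510).

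Across the killing machinery as a whole, the inflammasome sensors of bacterial proteins and their adaptor, together with copies of the survival gene Bcl2a1, were higher in Pth1rΔNLS cells, while the death receptor Fas, the BH3-only gene Pmaip1 and the caspases Casp6 and Casp12 were lower. Several of these differences, those of both caspases among them, missed the threshold in most fits that left out 1 library. Among the core apoptotic genes, Casp9, Bax, Bak1 and Bcl2 did not pass the test in either direction. Genotypes were compared with limma on log2(FPKM + 1), a scale that understates the change of low genes, in a fit over the 10905 genes that averaged 1 FPKM or more, and a gene was called at a Benjamini-Hochberg adjusted p below 0.05. Of the 53 genes, 50 passed that filter on low values. Casp12 did so only through its WT libraries (mean 0.798 FPKM in Pth1rΔNLS and 6.63 FPKM in WT cells), so it had to differ to be tested. Of those 50, 9 were higher in Pth1rΔNLS cells (18.0%, where 6.94% of all tested genes were), 4 were lower (8.0%, where 10.4% of all tested genes were) and 37 did not pass. The called share was thus 26.0%, beside 17.3% of all tested genes. The median log2 fold change was 0.15 over the 50 genes and -0.01 over all tested genes, and 35 of the 50 values were positive. The libraries of the genotypes did not overlap in 23 of the 50, where 36.6% of all tested genes had no overlap. Rescaling every library to the same total (TPM) left 5 higher and 4 lower. Of all 10905 tested genes, 505 were then called higher, against 757 before rescaling, and those called lower became fewer as well. The smaller count of higher genes among the 50 thus does not by itself show that their excess was lost. Quantile normalization gave 13 higher and 5 lower of the 50, and median centring 11 higher and 5 lower. Leaving out a library lowered the main count of 13 called genes. It was 5, 9 and 6 without Pth1rΔNLS 1, 2 and 3, and 7, 8 and 8 without WT 1, 2 and 3. The share of all genes called fell to 10.5, 9.64, 10.2, 11.1, 15.7 and 10.1% in the same order. Of the named genes, Fas, Pmaip1, Naip2 and Bcl2a1b kept their calls in all 6 of these fits. Naip5 kept its call in 5, Nlrc4 in 3, Casp6, Casp12 and Naip6 in 2, and Pycard and Bcl2a1d in 1. Without Pth1rΔNLS 1 and WT 1 together, the libraries of highest and lowest mitochondrial share, Fas and Pmaip1 passed and 5.69% of all genes did.

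**Figure D1:**
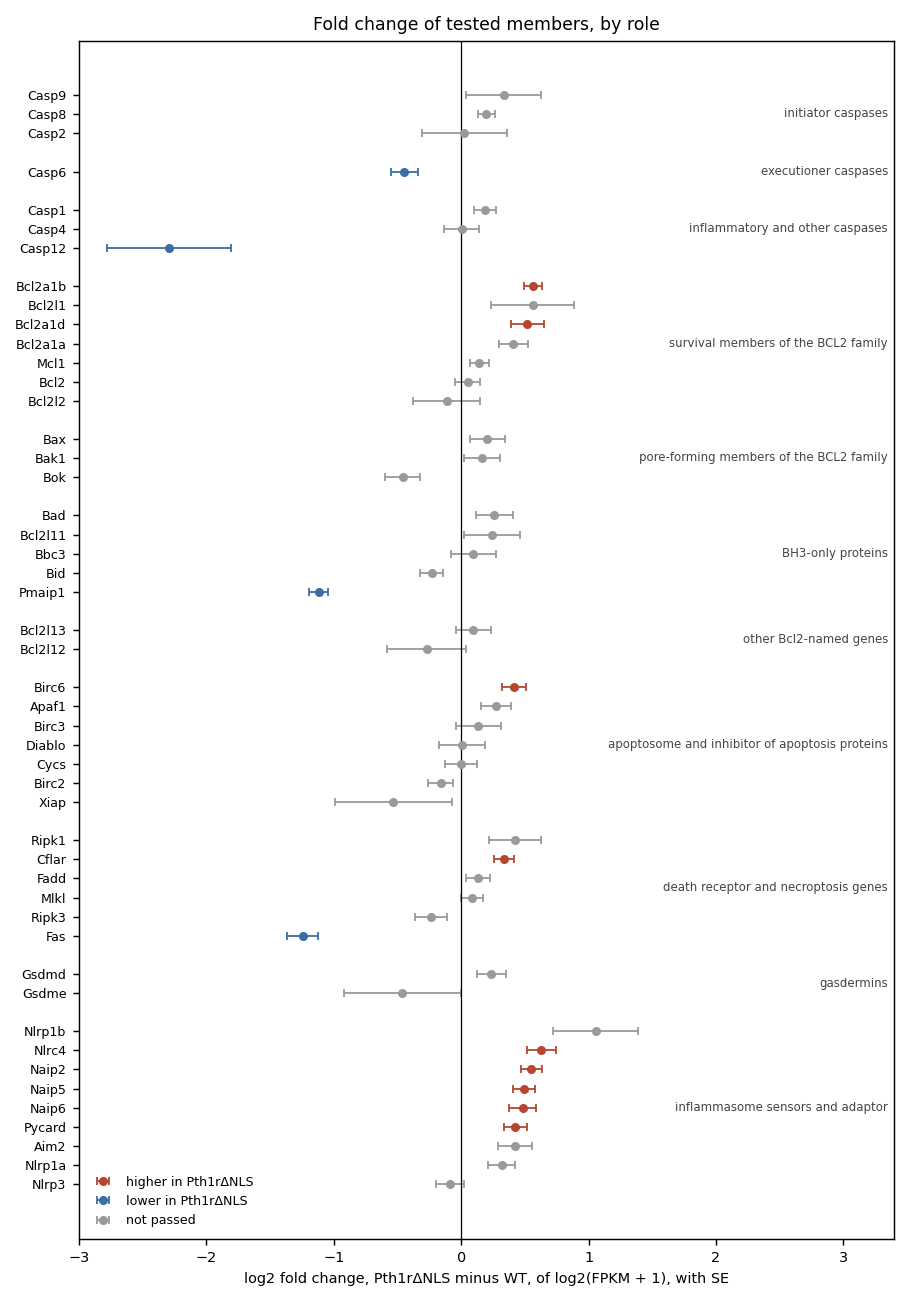
Log2 fold change (Pth1rΔNLS minus WT, of FPKM + 1) of 48 of the 50 tested genes, grouped by role; points are limma estimates and bars their SE, n = 3 libraries a group. Among the 9 inflammasome genes 5 are higher and 8 have a positive value, whereas the lowest values, Casp12 at -2.29, Fas at -1.25 and Pmaip1 at -1.12, fall in 3 other roles.

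Macrophage and stromal transcripts differed between the genotypes in the same libraries, and these values belong beside every result that follows. Of the 25 macrophage genes 18 were higher and 0 lower by limma (7 did not pass), with a median log2 fold change of 0.44, and 20 did not overlap. Their summed level was 9714 to 10280 FPKM in Pth1rΔNLS libraries and 7352 to 7590 FPKM in WT libraries. Of 17 tested osteoblast and stromal genes 0 were higher and 16 lower, with Spp1 the one that did not pass, at a median of -0.89. The 18 listed genes summed to 6542 to 7416 FPKM in Pth1rΔNLS and 8422 to 8631 FPKM in WT libraries, and most of that sum was Spp1. The other 17 summed to 1552 to 1662 FPKM in Pth1rΔNLS and 3406 to 3821 FPKM in WT libraries, a ratio of means of 0.449, in a sum chosen after seeing the data. Bglap was listed at 0 in 2 Pth1rΔNLS libraries. Of the other cell types, 2 of 4 tested endothelial genes were lower (Cdh5 and Emcn), Ppbp and Pf4 of the megakaryocyte list and Csf3r of the neutrophil list were higher, and Cd4, the lymphoid gene listed, did not pass. Ppbp passed the filter only through its Pth1rΔNLS libraries (mean 2.24 FPKM, 0.696 FPKM in WT cells), so it had to differ to be tested. Of 11 erythroid and megakaryocyte symbols 2 were listed. Of 11 neutrophil symbols 3 were listed and 1 was tested, and Camp, below the filter, averaged 0.166 FPKM in Pth1rΔNLS and 0.599 FPKM in WT cells. So few genes do not show the level of those cell types. The listed neutrophil genes summed to 5.69 to 6.82 FPKM in Pth1rΔNLS and 3.90 to 5.23 FPKM in WT libraries. Fewer cells of a type and less RNA per cell cannot be told apart in such bulk samples.

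Among the inflammasome genes, 5 of 9 tested were higher and none was lower in Pth1rΔNLS cells, with a median log2 fold change of 0.48. The 5 were 3 Naip genes, the Nlrc4 gene they act through, and Pycard. In mice, the NAIP proteins bind bacterial flagellin or parts of the bacterial secretion needle and then switch on NLRC4.

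Naip2 (ENSMUSG00000078945.10, chr13:100144063-100202092, mm10, minus strand), in mice the sensor of the rod protein of that needle, measured 8.37, 8.69 and 8.93 FPKM in the Pth1rΔNLS libraries and 5.63, 5.47 and 5.73 FPKM in the WT libraries. Every Pth1rΔNLS library was above every WT library, with little spread within either group. It had a log2 fold change of 0.55 (SE 0.08, limma adjusted p = 0.00711), and its call was kept without any one library (0.0179 to 0.0370). Naip5 (chr13:100211739-100246323), a flagellin sensor, measured 6.61, 6.496 and 6.60 FPKM in Pth1rΔNLS, against 4.17, 4.60 and 4.37 FPKM in WT libraries. Those groups too were well apart (log2 fold change 0.49, SE 0.09, limma adjusted p = 0.0127; 0.0517 without Pth1rΔNLS 2). Naip6 (chr13:100281121-100317674), the other flagellin sensor, measured 6.97, 6.03 and 7.20 FPKM in Pth1rΔNLS, against 4.92, 4.38 and 4.30 FPKM in WT libraries. The groups did not overlap (log2 fold change 0.48, SE 0.11, limma adjusted p = 0.0263), and the call was lost without Pth1rΔNLS 1 (0.0861), Pth1rΔNLS 3 (0.0904), WT 2 (0.0592) or WT 3 (0.0877), and under TPM scaling (0.0562). The 3 genes lie near each other on chromosome 13, and the coding sequences of Naip5 and Naip6 are 96.96% identical (Naip2 and Naip5 87.17%), so how reads were divided among them is uncertain. Their summed FPKM gave a log2 fold change of 0.56 (limma adjusted p = 0.00300), in an analysis chosen after seeing the data.

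Nlrc4 (chr17:74425438-74459142), the partner through which the NAIP sensors recruit the protease, measured 4.95, 4.25 and 4.97 FPKM in Pth1rΔNLS libraries and 3.06, 2.52 and 2.52 FPKM in WT libraries. It had the largest fold change of the 5, with no overlap (log2 fold change 0.63, SE 0.12, limma adjusted p = 0.0139), and missed the threshold without Pth1rΔNLS 1 (0.0535), Pth1rΔNLS 3 (0.0543) or WT 3 (0.0547). Pycard (chr7:127989708-127993867), the adaptor that joins sensors to the protease, measured 9.39, 8.47 and 8.76 FPKM in Pth1rΔNLS libraries and 6.13, 6.09 and 6.87 FPKM in WT libraries. No library of the groups overlapped (log2 fold change 0.42, SE 0.09, limma adjusted p = 0.0251), but Pycard stayed past the threshold in 1 of the 6 fits that left out a library, the one without WT 3 (0.0490), and reached 0.0847 in the others.

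The 4 tested inflammasome genes that did not pass were Aim2, Nlrp1b, Nlrp1a and Nlrp3. Aim2, a sensor of DNA in the cytosol, averaged 8.87 ± 0.918 FPKM in Pth1rΔNLS and 6.39 ± 1.00 FPKM in WT cells (SD, n = 3 each; log2 fold change 0.42, limma adjusted p = 0.0801). Nlrp1b, which in mice responds to anthrax lethal factor, measured 13.4, 13.9 and 14.3 FPKM in Pth1rΔNLS libraries and 8.78, 8.27 and 3.03 FPKM in WT libraries. WT 3 stood far below the other WT libraries, and the groups did not overlap (log2 fold change 1.06, SE 0.33, limma adjusted p = 0.0807); without WT 3 the value was 0.64 at an adjusted p of 0.0169. Nlrp1a, its neighbour, averaged 1.51 ± 0.0379 FPKM in Pth1rΔNLS and 1.02 ± 0.0991 FPKM in WT cells (limma adjusted p = 0.0948). Nlrp3, the sensor of membrane damage and ion loss and the most abundant of these genes, measured 10.9, 10.6 and 12.8 FPKM in Pth1rΔNLS and 11.1, 13.2 and 12.3 FPKM in WT libraries, which overlapped (log2 fold change -0.09, SE 0.11, limma adjusted p = 0.635). Nlrp10, at 0.567 ± 0.0824 FPKM in Pth1rΔNLS and 0.312 ± 0.0380 FPKM in WT cells (SD, n = 3 each), was below the filter and was not tested.

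**Figure D2:**
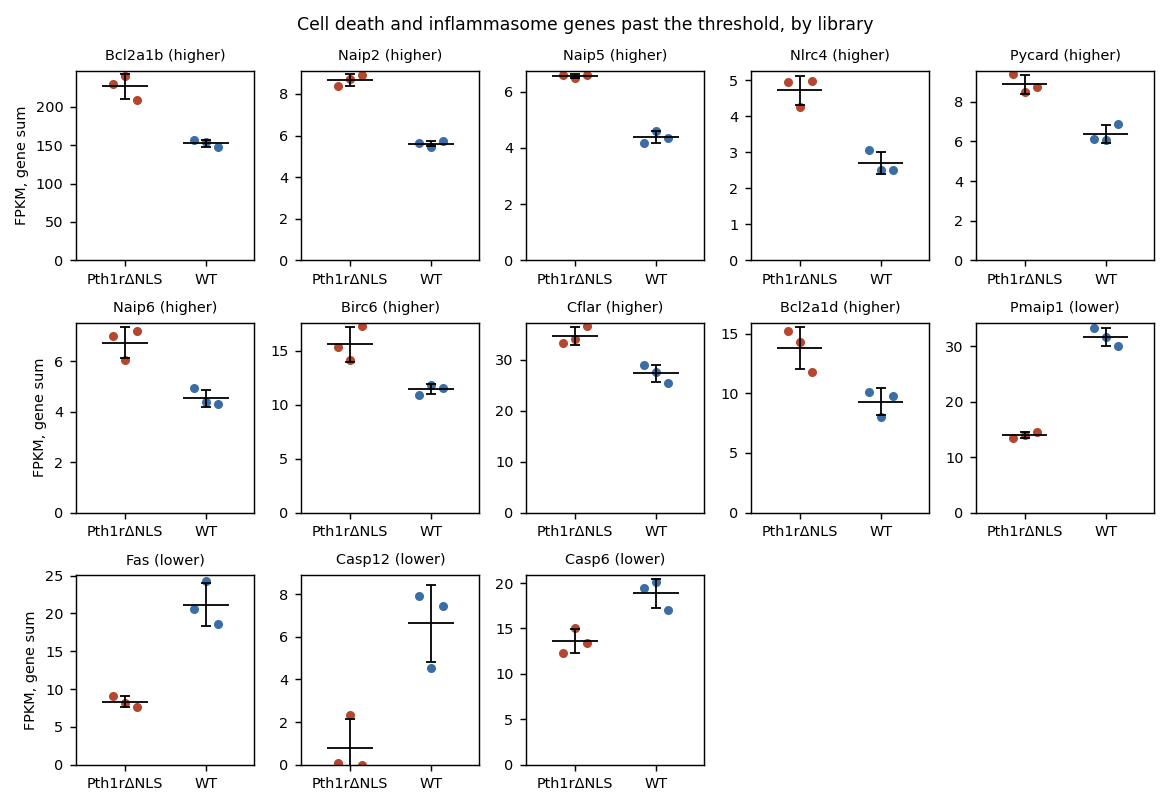
FPKM per library of the 13 genes past the threshold, each panel with its own linear axis from 0; points are libraries 1 to 3 from left to right, horizontal lines means and bars SD (n = 3). In each panel the 3 Pth1rΔNLS libraries lie wholly above or wholly below the 3 WT libraries, and Pth1rΔNLS 2 stands apart from the other Pth1rΔNLS libraries for Casp12.

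The Naip2 transcripts changed places between the genotypes. All 3 annotated transcripts of Naip2 were listed. ENSMUST00000067975.11, the form with the downstream first exon (chr13:100197083-100197147), measured 0.863, 1.11 and 2.19 FPKM in Pth1rΔNLS libraries and 5.63, 5.36 and 5.53 FPKM in WT libraries. It supplied 10.3 to 24.5% of the gene's FPKM in Pth1rΔNLS libraries and 96.4% or more in WT libraries (log2 fold change -1.48, SE 0.23, limma adjusted p = 0.0261). ENSMUST00000167986.2, which begins at an upstream exon (chr13:100201956-100201961), measured 5.10, 5.19 and 4.93 FPKM in Pth1rΔNLS libraries and 0, 0.107 and 0.205 FPKM in WT libraries (log2 fold change 2.46, SE 0.16, limma adjusted p = 0.00215). ENSMUST00000117913.7, which uses the same upstream exon in a longer annotated form (chr13:100201956-100202092), measured 2.41, 2.38 and 1.81 FPKM in Pth1rΔNLS libraries and was listed at 0 in every WT library (limma adjusted p = 0.0107). Both upstream-start transcripts passed the filter of a mean of 1 FPKM only through their Pth1rΔNLS libraries, so they had to differ to be tested. The split was alike in all 3 libraries of a genotype. The fit over 17281 transcripts called 6 of 78 transcripts of the cell death genes (3 higher, 3 lower), where 5.21% of all transcripts were called (1.82% higher, 3.39% lower), and 3 of the 6 were those of Naip2; the others belonged to Fas, Pmaip1 and Bcl2a1b. The call of ENSMUST00000167986.2 was kept without any one library (0.0110 to 0.0211), that of ENSMUST00000117913.7 was lost without Pth1rΔNLS 2 (0.0525), that of ENSMUST00000067975.11 without every library but Pth1rΔNLS 3 (0.0738 to 0.104), and that of the Bcl2a1b transcript without Pth1rΔNLS 1 (0.0582), Pth1rΔNLS 2 (0.0555) or WT 3 (0.0652). An exact 0 can be a failed estimate, and how reads were divided between the forms was not tested.

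**Figure D3:**
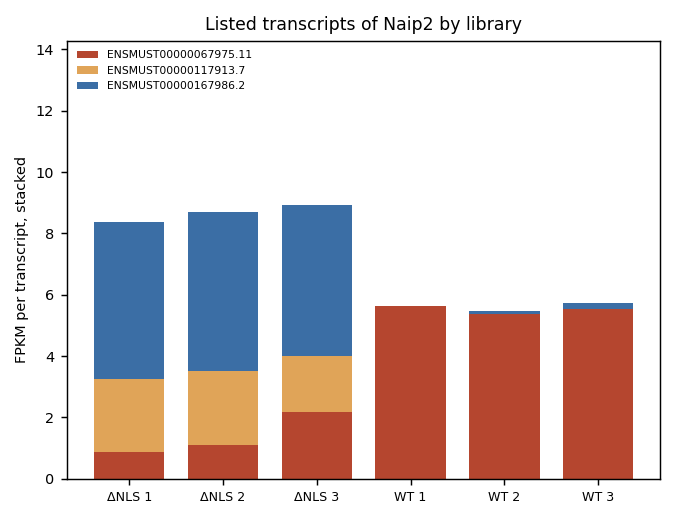
FPKM of the 3 listed Naip2 transcripts stacked for each library, Pth1rΔNLS on the left and WT on the right. The upstream-start transcripts ENSMUST00000167986.2 and ENSMUST00000117913.7 fill most of each Pth1rΔNLS bar and almost none of the WT bars, which hold 5.36 to 5.63 FPKM of ENSMUST00000067975.11.

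Beside the first exon, ENSMUST00000167986 lacks 1 coding exon of 168 bases that ENSMUST00000067975 contains, which leaves coding lengths of 4173 and 4341 bases. The skipped exon, at chr13:100154855-100155022 on the minus strand of mm10, is shown in full because it is the coding difference between the form that prevailed in Pth1rΔNLS and the form that prevailed in WT libraries (GENCODE M21 exon on the mm10 genome, 5′ to 3′, with no part capitalised):
Naip2 skipped exon: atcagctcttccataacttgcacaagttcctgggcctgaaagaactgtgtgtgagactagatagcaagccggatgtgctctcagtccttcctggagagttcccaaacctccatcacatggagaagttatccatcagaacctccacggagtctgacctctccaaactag

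Other genes divided their FPKM unevenly without following genotype. WT 3 had all 4.30 FPKM of Naip6 in ENSMUST00000118574.7 and all 3.03 FPKM of Nlrp1b in ENSMUST00000108514.9, transcripts that held at most 11.8 and 8.82% of those genes in any other library. For Xiap, which encodes a direct caspase inhibitor, ENSMUST00000115094.7 gave 10.9 FPKM in Pth1rΔNLS 2 and at most 1.03 FPKM in any other library, ENSMUST00000055483.9 gave 5.998 FPKM in WT 1, and ENSMUST00000026978.6 gave 13.2 FPKM in WT 3. The gene sums of Xiap were 5.10, 13.9 and 4.37 FPKM in Pth1rΔNLS and 11.6, 6.21 and 15.3 FPKM in WT libraries. They overlapped widely (log2 fold change -0.53, SE 0.46, limma adjusted p = 0.492).

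**Figure D4:**
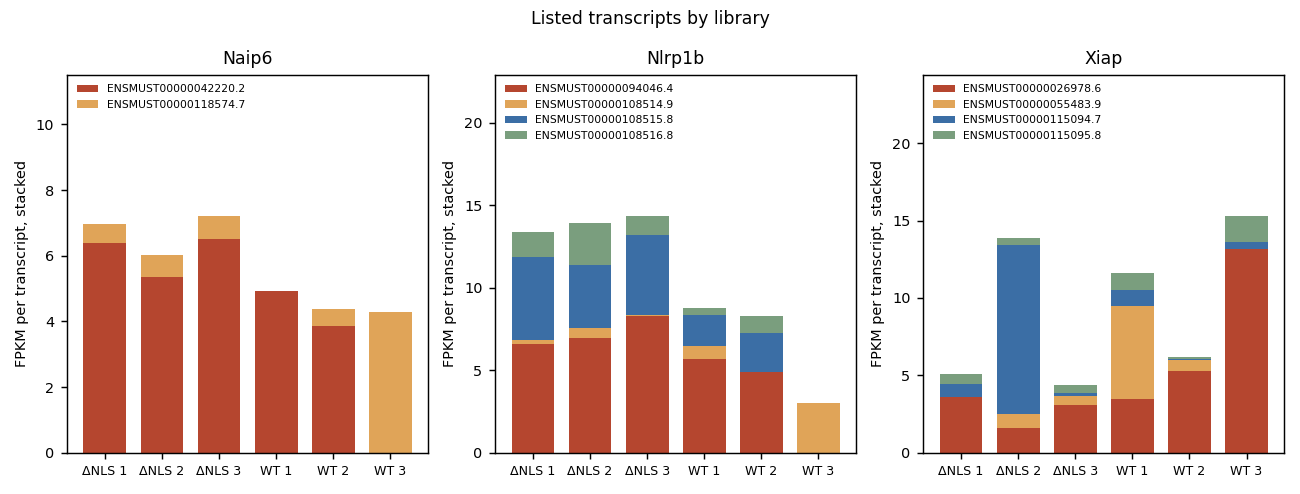
FPKM of the listed transcripts of Naip6, Nlrp1b and Xiap stacked for each library, Pth1rΔNLS on the left and WT on the right of each panel. In WT 3 a single transcript fills the Naip6 and Nlrp1b bars, and single libraries (Pth1rΔNLS 2, WT 1 and WT 3) hold the tall Xiap bars.

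Of the 7 tested survival members of the BCL2 family, 2 were higher and none was lower (median log2 fold change 0.41). Both were copies of Bcl2a1, an inducible survival gene of blood cells that mice carry in several near-identical copies on chromosome 9. Bcl2a1b (ENSMUSG00000089929.1, chr9:89199209-89207827, plus strand), the most abundant gene of the whole set, measured 229.7, 240.3 and 209.0 FPKM in Pth1rΔNLS libraries and 157, 154 and 148 FPKM in WT libraries. The lowest Pth1rΔNLS library was well above the highest WT library (log2 fold change 0.56, SE 0.07, limma adjusted p = 0.00410), and the call was kept without any one library (0.00889 to 0.0246). Bcl2a1d (chr9:88723285-88731914) measured 15.2, 14.3 and 11.8 FPKM in Pth1rΔNLS and 10.1, 8.04 and 9.77 FPKM in WT libraries (log2 fold change 0.52, SE 0.13, limma adjusted p = 0.0393). Its groups did not overlap, but the call was kept in 1 of the 6 fits that left out a library, the one without Pth1rΔNLS 3 (0.0401; 0.0660 to 0.123 in the others), and was lost under TPM scaling (0.0541). Bcl2a1a averaged 13.3 ± 1.21 FPKM in Pth1rΔNLS and 9.83 ± 1.18 FPKM in WT cells (SD, n = 3 each) and did not pass (log2 fold change 0.41, limma adjusted p = 0.0566).

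Over 516 coding bases Bcl2a1b differs from Bcl2a1d at 6 positions and from Bcl2a1a at 11, so how reads were divided between the copies, and the level of each, is uncertain. Summed over the copies, the log2 fold change was 0.56 (limma adjusted p = 0.00466), in an analysis chosen after seeing the data. Bcl2a1b also overlaps Gm29094 on the same strand over 8449 bases, and Bcl2a1d overlaps the antisense gene Gm10634; whether counting used strand is not stated by the labels. The first 90 coding bases of each copy show how close they are (GENCODE M21 transcripts, 5′ to 3′, with capitals at the positions where the 3 copies are not all the same):
Bcl2a1b: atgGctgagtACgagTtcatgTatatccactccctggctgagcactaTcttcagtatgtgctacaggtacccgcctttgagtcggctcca
Bcl2a1a: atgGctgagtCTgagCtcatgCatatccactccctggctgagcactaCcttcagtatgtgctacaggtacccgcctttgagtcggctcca
Bcl2a1d: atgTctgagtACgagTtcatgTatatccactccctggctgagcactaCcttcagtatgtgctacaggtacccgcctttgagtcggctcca

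The other survival genes did not pass. Mcl1, a short-lived survival protein needed by many blood cells and the second most abundant gene of the set, averaged 117 ± 3.80 FPKM in Pth1rΔNLS and 106 ± 7.82 FPKM in WT cells (SD, n = 3 each; log2 fold change 0.14, limma adjusted p = 0.266). Bcl2l1, which encodes BCL-XL, measured 14.8, 37.5 and 23.8 FPKM in Pth1rΔNLS and 20.0, 12.8 and 15.2 FPKM in WT libraries; Pth1rΔNLS 2 was the highest, and the groups overlapped (limma adjusted p = 0.305). Bcl2, the founding member, averaged 6.63 ± 0.504 FPKM in Pth1rΔNLS and 6.37 ± 0.384 FPKM in WT cells, and Bcl2l2 had a log2 fold change of -0.11 (limma adjusted p = 0.772 for Bcl2 and 0.814 for Bcl2l2).

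None of the 3 pore-forming genes was called. Bax, the most abundant of them, measured 44.5, 51.2 and 62.1 FPKM in Pth1rΔNLS and 48.9, 40.3 and 46.6 FPKM in WT libraries, with overlap (log2 fold change 0.20, SE 0.14, limma adjusted p = 0.376). Bak1, its partner at the mitochondrial membrane, averaged 27.0 ± 4.76 FPKM in Pth1rΔNLS and 23.9 ± 2.68 FPKM in WT cells (SD, n = 3 each; limma adjusted p = 0.492). Bok, a less studied relative, measured 5.95, 7.07 and 8.02 FPKM in Pth1rΔNLS and 10.9, 8.69 and 10.4 FPKM in WT libraries, without overlap, and missed the threshold (log2 fold change -0.46, limma adjusted p = 0.0650).

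Of the 5 tested BH3-only genes, Pmaip1 was lower and none was higher. Pmaip1 (ENSMUSG00000024521.8, chr18:66458533-66465565), which encodes NOXA, a protein that frees the pore-formers from MCL1, measured 13.4, 13.9 and 14.6 FPKM in Pth1rΔNLS libraries and 33.2, 31.6 and 30.01 FPKM in WT libraries. The libraries of each genotype were close to each other, and the gap between the groups was far wider than the range within either. Pmaip1 fell by 1.12 on the log2 scale (SE 0.07), with the smallest limma adjusted p of the set (0.000385), and the call was kept without any one library (0.00237 to 0.00418). Bid, which links death receptors to mitochondria, averaged 16.0 ± 1.25 FPKM in Pth1rΔNLS and 18.9 ± 1.03 FPKM in WT cells, without overlap, and did not pass (log2 fold change -0.23, limma adjusted p = 0.128). Bad, Bbc3 and Bcl2l11 had log2 fold changes of 0.26, 0.09 and 0.24 and adjusted p of 0.287, 0.765 and 0.509 by limma. Bmf was below the filter, at 0.907 ± 0.311 FPKM in Pth1rΔNLS and 0.760 ± 0.184 FPKM in WT cells (SD, n = 3 each). Neither of the 2 other Bcl2-named genes passed; the more abundant one, Bcl2l12, measured 4.01, 6.11 and 7.20 FPKM in Pth1rΔNLS and 11, 4.67 and 6.56 FPKM in WT libraries (limma adjusted p = 0.605), and Bcl2l13 had an adjusted p of 0.684.

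Of the 6 death receptor and necroptosis genes, Fas was lower, Cflar was higher and 4 did not pass. Fas (ENSMUSG00000024778.13, chr19:34290666-34327772, plus strand), the death receptor for FAS ligand, measured 9.09, 8.14 and 7.67 FPKM in Pth1rΔNLS libraries and 20.5, 24.2 and 18.6 FPKM in WT libraries. Every Pth1rΔNLS library was far below every WT library. On the log2 scale Fas fell by 1.25 (SE 0.12, limma adjusted p = 0.00130), and its call was kept without any one library (0.00335 to 0.00950). Its main transcript, ENSMUST00000025691.11, was lower too, at 6.70 ± 0.566 FPKM in Pth1rΔNLS and 19.1 ± 2.63 FPKM in WT cells (SD, n = 3 each; limma adjusted p = 0.00565), while the shorter ENSMUST00000112472.2 averaged 1.60 ± 0.701 FPKM in Pth1rΔNLS and 2.09 ± 0.373 FPKM in WT cells and did not pass (0.625).

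Cflar (chr1:58711508-58758884), the catalytically dead relative of Casp8 that holds it in check and the most abundant gene of this role, measured 33.4, 34.1 and 36.7 FPKM in Pth1rΔNLS and 28.9, 27.6 and 25.6 FPKM in WT libraries. The groups did not overlap (log2 fold change 0.33, SE 0.08, limma adjusted p = 0.0306), but Cflar missed the threshold whichever library was left out, whether Pth1rΔNLS 1, 2 or 3 or WT 1, 2 or 3 (0.0502 to 0.103), and under TPM scaling (0.1004). Ripk1, a kinase that directs signals from TNF receptors to survival or death, averaged 13.3 ± 1.72 FPKM in Pth1rΔNLS and 9.89 ± 3.07 FPKM in WT cells (limma adjusted p = 0.226; 0.0311 without WT 2, the WT library of highest Ripk1). Ripk3 and Mlkl, which carry out necroptosis, had log2 fold changes of -0.24 and 0.08 with limma adjusted p of 0.262 and 0.582. Fadd, the adaptor below FAS, averaged 3.19 ± 0.0396 FPKM in Pth1rΔNLS and 2.82 ± 0.0930 FPKM in WT cells and did not pass (limma adjusted p = 0.394).

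Among the caspases, 2 were lower and none was higher. None of the 3 initiator caspases passed. Casp8, which death receptors activate and the most abundant initiator, measured 49.0, 49.98 and 52.5 FPKM in Pth1rΔNLS and 45.8, 44.5 and 41.7 FPKM in WT libraries, without overlap, at a log2 fold change of 0.19 (SE 0.07, limma adjusted p = 0.102). Casp9, the apoptosome's caspase, averaged 5.21 ± 1.96 FPKM in Pth1rΔNLS and 3.85 ± 1.25 FPKM in WT cells, and Casp2 averaged 3.20 ± 1.69 FPKM in Pth1rΔNLS and 2.997 ± 0.994 FPKM in WT cells (SD, n = 3 each; limma adjusted p = 0.5003 and 0.971).

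Casp6 (chr3:129901425-129914103), an executioner that cuts nuclear lamins, measured 12.3, 15.02 and 13.4 FPKM in Pth1rΔNLS and 19.5, 20.1 and 17.1 FPKM in WT libraries. The groups did not overlap (log2 fold change -0.45, SE 0.10, limma adjusted p = 0.0312). The call was lost without Pth1rΔNLS 1 (0.0907), Pth1rΔNLS 3 (0.0941), WT 1 (0.0930) or WT 2 (0.0743).

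Casp12 (chr9:5345430-5373032), a caspase of the inflammatory group linked to the endoplasmic reticulum in mice, measured 0.0624 and 2.33 FPKM in Pth1rΔNLS 1 and 2, was listed at 0 in Pth1rΔNLS 3, and measured 7.91, 4.55 and 7.44 FPKM in WT libraries. It passed the filter on low values through its WT libraries. The highest Pth1rΔNLS library stayed below the lowest WT library (log2 fold change -2.29, SE 0.48, limma adjusted p = 0.0225). The call was lost without Pth1rΔNLS 1 (0.0712), Pth1rΔNLS 3 (0.0706), WT 1 (0.0727) or WT 3 (0.0738), and with a pseudocount of 0.1 (0.0529). Its neighbours on chromosome 9 did not pass: Casp1, the interleukin-processing protease of inflammasomes and the most abundant of the group, measured 47.0, 45.1 and 41.7 FPKM in Pth1rΔNLS and 39.2, 42.4 and 36.0 FPKM in WT libraries, with overlap (log2 fold change 0.18, SE 0.09, limma adjusted p = 0.207), and Casp4, the sensor of cytosolic lipopolysaccharide, averaged 5.46 ± 0.562 FPKM in Pth1rΔNLS and 5.47 ± 0.914 FPKM in WT cells (limma adjusted p = 0.990). Casp14, a skin caspase, was below the filter at 0.291 ± 0.151 FPKM in Pth1rΔNLS and 0.602 ± 0.0534 FPKM in WT cells (SD, n = 3 each).

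Of the 7 apoptosome and inhibitor of apoptosis genes, Birc6 was higher and 6 did not pass. Birc6 (chr17:74528295-74703356), a giant ubiquitin ligase that restrains caspases, measured 15.4, 14.1 and 17.3 FPKM in Pth1rΔNLS and 10.9, 11.8 and 11.6 FPKM in WT libraries. The groups did not overlap (log2 fold change 0.41, SE 0.10, limma adjusted p = 0.0302), but the call was kept in 1 of the 6 fits that left out a library, the one without Pth1rΔNLS 2 (0.0458; 0.0509 to 0.0908 in the others), and was lost under TPM scaling (0.0726). Birc6 also shares 41739 bases with the antisense gene Gm26749. Cycs, which encodes cytochrome c and was the most abundant of the role, measured 32.4, 30.2 and 23.9 FPKM in Pth1rΔNLS and 27.4, 31.5 and 27.3 FPKM in WT libraries (limma adjusted p = 0.992). Apaf1, the scaffold of the apoptosome, averaged 7.16 ± 0.547 FPKM in Pth1rΔNLS and 5.79 ± 0.749 FPKM in WT cells, without overlap, at an adjusted p of 0.180. Birc2, Birc3 and Diablo had limma adjusted p of 0.328, 0.666 and 0.989.

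Neither listed gasdermin passed. Gsdmd, the pore protein that inflammasome caspases cut, measured 10.98, 13.2 and 13.7 FPKM in Pth1rΔNLS and 10.6, 9.54 and 11.5 FPKM in WT libraries, with overlap (log2 fold change 0.24, SE 0.12, limma adjusted p = 0.225). Gsdme, its relative, measured 2.09 and 2.12 FPKM in Pth1rΔNLS 1 and 3, was listed at 0 in Pth1rΔNLS 2, and measured 2.31, 2.28 and 1.33 FPKM in WT libraries (limma adjusted p = 0.550).

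The called genes were then set against the marker lists, as FPKM per 1000 FPKM of the 25 summed macrophage genes. The ratio of Pth1rΔNLS to WT means was then 1.16 for Naip2, 1.12 for Naip5 and 1.11 for Bcl2a1b, each still without overlap between genotypes. It was 1.31 for Nlrc4, 1.11 for Naip6, 1.11 for Bcl2a1d, 1.05 for Pycard, 1.02 for Birc6 and 0.951 for Cflar, each with overlap. Before this division the ratios of those 9 genes were 1.27 to 1.75. The macrophage sum itself had a ratio of means of 1.34. Division by that sum lowers the ratio of any gene, so no conclusion is drawn from the move toward 1. The 4 lower genes were set against the summed stromal list in the same way, and there the value turned on Spp1. With Spp1 in the sum the ratios were 0.536 for Pmaip1, 0.473 for Fas and 0.142 for Casp12, without overlap, and 0.871 for Casp6, with overlap. Most of that sum was Spp1, which macrophages also express and which was not called lower. They are thus largely ratios to Spp1, and no conclusion about stromal RNA is drawn from these ratios. Without Spp1, in a sum chosen after seeing the data, they were 0.985 for Pmaip1, 0.872 for Fas and 0.263 for Casp12, each with overlap, and 1.598 for Casp6, without overlap and in the other direction. That sum left out the tested stromal gene that was not called lower, and itself had a ratio of means of 0.449. Division by it raises every ratio, so no conclusion is drawn from the ratios without Spp1. All ratios in this paragraph are descriptions of summed levels. The part of macrophage and stromal RNA in the gene differences was not tested beyond them.

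**Figure D5:**
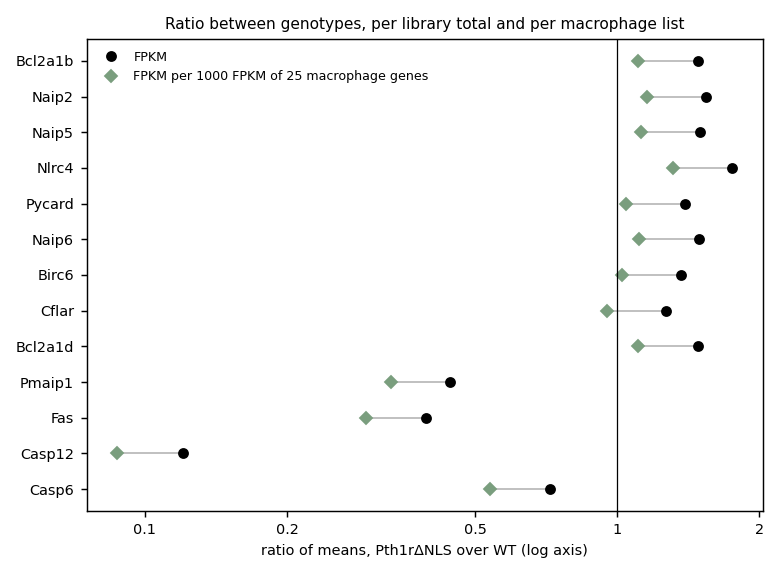
Ratio of Pth1rΔNLS to WT mean for the 13 called genes on a log axis, from FPKM (circles) and from FPKM per 1000 FPKM of the 25 summed macrophage genes (diamonds). The diamonds of the 9 higher genes lie nearer to 1 than their circles, at 0.951 to 1.31, and those of the 4 lower genes lie farther from it, at 0.0874 to 0.539. The macrophage sum itself had a ratio of means of 1.34, so division by it lowers every ratio.

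Promoters of 4 of the 9 higher genes are shown as RefSeq windows of 300 bases, 250 before to 50 after the start (GRCm38.p6), as examples that hold the same 8 letters. Capitals mark the letters AGGAAGTG or, on the other strand, CACTTCCT, a core bound by ETS-family factors such as the macrophage factor encoded by Spi1. The letters and the 4 examples were chosen after the sequences were seen, both strands were searched, and no other motif was searched. The Naip2 window overlaps the upstream first exon of ENSMUST00000117913, not the downstream one. The windows are Bcl2a1b at chr9:89199023-89199322 (plus strand), Naip2 at chr13:100202073-100202372 (minus), Nlrc4 at chr17:74459059-74459358 (minus) and Pycard at chr7:127993818-127994117 (minus), each written 5′ to 3′ on its own strand:
Bcl2a1b promoter: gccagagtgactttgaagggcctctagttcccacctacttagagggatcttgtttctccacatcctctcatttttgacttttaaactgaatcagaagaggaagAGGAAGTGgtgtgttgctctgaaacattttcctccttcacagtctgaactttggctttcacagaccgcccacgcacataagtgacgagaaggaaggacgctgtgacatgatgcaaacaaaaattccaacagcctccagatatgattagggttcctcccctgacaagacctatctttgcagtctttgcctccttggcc
Naip2 promoter: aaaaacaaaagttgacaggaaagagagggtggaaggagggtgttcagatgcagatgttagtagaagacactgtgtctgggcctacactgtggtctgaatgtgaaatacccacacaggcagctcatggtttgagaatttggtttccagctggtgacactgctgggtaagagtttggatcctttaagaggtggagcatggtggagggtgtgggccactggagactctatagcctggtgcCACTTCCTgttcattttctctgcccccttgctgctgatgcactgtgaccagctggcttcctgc
Nlrc4 promoter: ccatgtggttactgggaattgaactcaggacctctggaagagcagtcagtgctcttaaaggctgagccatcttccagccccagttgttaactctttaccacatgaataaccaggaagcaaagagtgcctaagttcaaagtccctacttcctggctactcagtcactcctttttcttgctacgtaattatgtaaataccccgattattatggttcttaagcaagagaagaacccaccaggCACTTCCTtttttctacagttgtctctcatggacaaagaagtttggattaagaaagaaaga
Pycard promoter: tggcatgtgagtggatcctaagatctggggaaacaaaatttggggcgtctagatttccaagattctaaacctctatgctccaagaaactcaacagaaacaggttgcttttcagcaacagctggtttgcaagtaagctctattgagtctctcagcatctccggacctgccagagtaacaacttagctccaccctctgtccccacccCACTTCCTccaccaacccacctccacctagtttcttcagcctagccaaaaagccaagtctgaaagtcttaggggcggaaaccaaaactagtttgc

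Each window held the word once, at -147 from the start in Bcl2a1b, -13 in Naip2, -11 in Nlrc4 and -45 in Pycard. The word was in 4.07% of all 32851 promoter windows of this length, and in the windows of 5.53% of the 8631 tested genes that had one. Of the 48 cell death and inflammasome genes with a window it was in 9: in 6 of 9 higher genes (those 4, Naip5 and Bcl2a1d, but not Naip6, Cflar or Birc6), in 0 of 3 lower genes and in 3 of 34 that did not pass (Aim2, Bcl2a1a and Nlrp1b). Pmaip1, the remaining lower gene, had no window. The word was chosen after these sequences were seen, so its share among the higher genes is no test, and no conclusion is drawn from it. The copies of Bcl2a1 and of Naip share sequence and are not independent, and a match of letters is a description, not a binding site.

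The rest of the pathway was read from 96 other apoptosis and pyroptosis symbols, of which 80 were listed and 76 tested. Of the 76, 7 were higher and 6 lower, a called share of 17.1% beside 17.3% of all tested genes, with a median log2 fold change of 0.02. The 10 of smallest p were Pawr, Gbp2, Mertk, Tnfrsf10b, Tnfrsf1b, Tnfaip8, Nfkbia, P2rx7, Card19 and Mfge8. The fall was steepest for Pawr, which encodes the pro-apoptotic protein PAR-4, at 4.29 ± 0.337 FPKM in Pth1rΔNLS and 17.1 ± 1.33 FPKM in WT cells (SD, n = 3 each; log2 fold change -1.78, limma adjusted p = 0.000213). Tnfrsf10b, the mouse TRAIL death receptor, averaged 12.0 ± 0.814 FPKM in Pth1rΔNLS and 19.3 ± 0.191 FPKM in WT cells (-0.65, limma adjusted p = 0.00302).

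Of the other 8 named genes, Gbp2 and Mfge8 were lower and 6 were higher. Gbp2, an interferon-induced GTPase that exposes bacterial lipopolysaccharide, averaged 4.17 ± 0.301 FPKM in Pth1rΔNLS and 11.5 ± 1.07 FPKM in WT cells (log2 fold change -1.27, limma adjusted p = 0.000774). Mertk, the macrophage receptor for dying cells, averaged 41.0 ± 1.13 FPKM in Pth1rΔNLS and 23.4 ± 0.840 FPKM in WT cells (0.79, limma adjusted p = 0.000807), while Mfge8, a bridge between dying cells and the cells that engulf them, averaged 36.1 ± 4.22 FPKM in Pth1rΔNLS and 55.5 ± 8.52 FPKM in WT cells (-0.60, limma adjusted p = 0.0317). P2rx7, the ATP-gated channel upstream of the NLRP3 inflammasome, averaged 11.3 ± 1.21 FPKM in Pth1rΔNLS and 7.21 ± 0.914 FPKM in WT cells (0.59, limma adjusted p = 0.0225). Tnfrsf1b, Tnfaip8, Nfkbia and Card19 were higher, at log2 fold changes of 0.66, 0.41, 0.39 and 0.49 (limma adjusted p = 0.00657, 0.0142, 0.0168 and 0.0272). Fits that left out a library, which have fewer libraries to test on, kept the calls of Pawr, Gbp2, Mertk, Tnfrsf10b and Tnfrsf1b. They lost Tnfaip8 without Pth1rΔNLS 2 (0.0565), Nfkbia without Pth1rΔNLS 1, Pth1rΔNLS 2 or WT 3 (up to 0.0665), P2rx7 without Pth1rΔNLS 2 or 3 or WT 1 or 3 (up to 0.0800), Card19 without any Pth1rΔNLS library or WT 2 (up to 0.0901) and Mfge8 without any library but WT 2 (up to 0.0987). Over the 6 fits the log2 fold changes stayed between 0.36 and 0.45 for Tnfaip8, 0.35 and 0.44 for Nfkbia, 0.50 and 0.67 for P2rx7, 0.38 and 0.58 for Card19, and -0.73 and -0.50 for Mfge8. Leaving out Pth1rΔNLS 1 gave 8 calls in place of 13, leaving out Pth1rΔNLS 2 gave 5, and leaving out Pth1rΔNLS 3 or WT 3 gave 7. Scaling moved the balance of other pathway genes past the threshold from 7 higher and 6 lower to 10 higher and 4 lower under quantile normalization, and to 9 higher and 5 lower under median centring or scaling without mitochondrial transcripts.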

How the data were processed

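Per the labels' protocols, RNA from flash-frozen cells was extracted with TRIzol and 1 µg of total RNA went into Illumina TruSeq RNA libraries. Per the submitters' processing notes, HISAT2, StringTie and the mouse build mm10 were used; for versions, settings, strand use and annotation nothing is given in the sources used here. The authors deposited a table of 23351 transcripts with 1 column per library, whose header states no unit. Values in the deposited table were treated as FPKM, because value times transcript length summed to nearly the same total in each library (coefficient of variation 1.49%). Depth is unknown and reads were not recovered, so no counting interval is given; the 3 libraries a genotype limit the precision.

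Transcripts were named by identifier from GENCODE M21 (23300 of 23351, 22174 with the same version) and FPKM were summed per gene. The test was limma 3.58.1 under R 4.3.3 (lmFit, then trended eBayes, Pth1rΔNLS minus WT, two-sided, Benjamini-Hochberg over all genes tested), and transcripts likewise; the procedure was tested on simulated data. Errors beside means are SD, and SE is limma's moderated standard error. Tables, sequences and plots used Python 3.11.15, pandas 2.3.3, numpy 2.4.6, Biopython 1.88 and matplotlib 3.10.9. Promoters came from RefSeq (GRCm38.p6), and coding and exon sequences from GENCODE M21.

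Values of 2 tested genes are not reported here. Called genes, the tested gene of highest mean in each role and every gene below the filter are named, with up to 10 other pathway genes of smallest p. The genes, lists, tests and alternatives were chosen with earlier results of these data known. Alternatives changed the pseudocount, the filter, the scaling, the variance model, the replicate block, the libraries and the handling of transcripts and copies.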

Additional observations from a re-analysis of the deposited data

How the results depend on the processing

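The count of 13 members past the threshold stayed within 1.5 times that number (9 to 18) under other pseudocounts, filters, scalings and variance models, and with the transcript of highest mean. With near-identical copies summed the count was 14, but each sum stood in for every copy and was counted more than once. With the replicate block it was 3 (Bcl2a1b, Fas and Pmaip1). Without WT 1 and Pth1rΔNLS 1 together it was 2, with 0 higher by limma, where 16 were higher at an unadjusted p below 0.05. Leaving out 1 library gave 5 to 9 members. For all genes past the threshold the count was 792 with the block, 620 without both of those libraries and 1051 to 1712 without 1 library, against 1886. The other pathway genes past the threshold numbered 6 with the block, 6 without both libraries and 5 to 11 without 1. The member transcripts past the threshold numbered 0 with the block by limma, where 21 had an unadjusted p below 0.05 (lowest adjusted p 0.0747), and 4 to 6 without 1 library, against 6. Naip2 reversed where the transcript of highest mean stood for the gene, at -1.48 (adjusted p = 0.0125), since that transcript is the one with the downstream first exon. Fewer libraries go into the fits that leave some out, and the block fits more terms to the same libraries. How far either accounts for the lower counts was not tested. Whether same-numbered libraries were paired is not stated by the labels. Same-numbered deviations correlated at -0.189, -0.0664 and 0.0657, and not every library correlated best with its own number. With 3 libraries a group, such correlations cannot exclude a pairing. Alternatives on scaling shifted the median of all genes by less than 0.1 on the log2 scale. With 3 libraries a genotype and an unknown depth, a gene that did not pass is not shown to be unchanged.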
